A study of Drosophila melanogaster with 54 samples.

Results

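Trimethylation of histone H3 at lysine 4 (H3K4me3) was mapped by chromatin immunoprecipitation and sequencing in fly heads, and the peaks described here lie on chromosome 4, in assembled heterochromatin or on unplaced sequence. Members were the deposited peaks whose sequence name was chr4, chrU, chrUextra or ended in Het, with chr2RHet left out. They numbered 203 of 4784 peaks in replicate 1 and 155 of 4526 in replicate 2. Chromosome 4 held 63 and 56 of them, the heterochromatin arms 30 and 26, chrU 11 and 13, and chrUextra 99 and 60. The comparison arms chr2L, chr3L and chr3R held 2792 and 2658 peaks. Both libraries came from heads of Canton S, labelled as a wild-type strain of Drosophila melanogaster, grown at 25 °C and collected 3 h after lights on (ZT3). RNA counts of control flies of the strain YW, held at 18 °C or 29 °C, are used at the end. The H3K4me3 libraries formed 1 group with no contrast, and the labels do not say whether the heads came from separate collections. A peak is a stretch of dm3 sequence that the authors' caller marked in 1 library, so each value is given for both libraries side by side, and peaks of a library are not replicates of one another. No test across samples was possible with 2 libraries of 1 group. Intervals of shares are exact 95% binomial (Clopper-Pearson) intervals and cover counting error only. The read depth of both libraries was not given in the sources used here.

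H3K4me3 marks the first nucleosomes downstream of the start sites of active genes. Chromosome 4, the dot chromosome or Muller element F, is packaged over most of its length with the heterochromatin protein HP1a and methylated lysine 9 of histone H3, and yet carries many active genes, which also bind the chromosome-specific protein POF. Sequences named Het in dm3 are assembled stretches of pericentric heterochromatin, rich in transposon remnants and with few genes. chrU and chrUextra gather scaffolds without a place on a chromosome and may hold repeats, so a peak there need not mark a single place in the genome. No mark of heterochromatin was measured in these libraries, so the names follow the assembly and could not be checked against the data.

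Counted over all listed peaks, chromosome 4 was more densely packed than the comparison arms. From its first to its last peak chromosome 4 spanned 1258 kb in replicate 1 and 1257 kb in replicate 2, with 5.01 and 4.45 peaks per 100 kb of that span, against 3.71 and 3.53 over the comparison arms. The values of chr2L, chr3L and chr3R ran from 3.56 to 3.92 in replicate 1 and from 3.37 to 3.72 in replicate 2, so chromosome 4 stood above each arm in both libraries. All listed peaks count here, weak ones included. At or above the median score of each list, chromosome 4 kept 38 of 63 and 10 of 56 peaks. The comparison arms kept 1463 of 2792 and 1376 of 2658, so the higher density in replicate 2 depended on peaks below that median. Peaks covered 203 kb (16.2% of the span; mean width 3228 bases) and 153 kb (12.2%; mean width 2737 bases) of chromosome 4, against 11.4% and 11.2% of the span of the comparison arms.

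Neighbouring peaks were farther apart in the median on chromosome 4, while a smaller share of the distances was long. The midpoints of neighbours lay a median of 15.4 kb apart in replicate 1 (quartiles 8.62 and 25.9 kb) and 19.3 kb in replicate 2 (7.13 and 32.7 kb). The comparison arms had medians of 11.4 kb (quartiles 5.57 and 31.2 kb) and 11.7 kb (5.72 and 33.1 kb). Their mean spacing was longer, 27 and 28.4 kb against 20.2 and 22.8 kb on chromosome 4. Distances over 50 kb made up 6.45% and 7.27% of chromosome 4 spacings (4 of 62 and 4 of 55) and 15.4% and 16.7% of those of the comparison arms. Distances under 5 kb were about as frequent on chromosome 4 (17.7% and 16.4%) as on the arms (19.7% and 19.2%).

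The stretches of chromosome 4 without peaks lay at nearly the same places in both libraries. The longest ran from 717289 to 806228 in replicate 1 (88.9 kb) and from 717236 to 806522 in replicate 2 (89.3 kb). The next ran from 390717 to 462735 in replicate 1 (72 kb) and from 382241 to 462941 in replicate 2 (80.7 kb), which lacked a weak peak listed there in replicate 1. The third lay between 524668 and 574389 in replicate 1 (49.7 kb) and between 523809 and 576597 in replicate 2 (52.8 kb). In windows of 200 kb chromosome 4 held 8 to 10 peaks in replicate 1 and 7 to 10 in replicate 2.

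**Figure D1:**
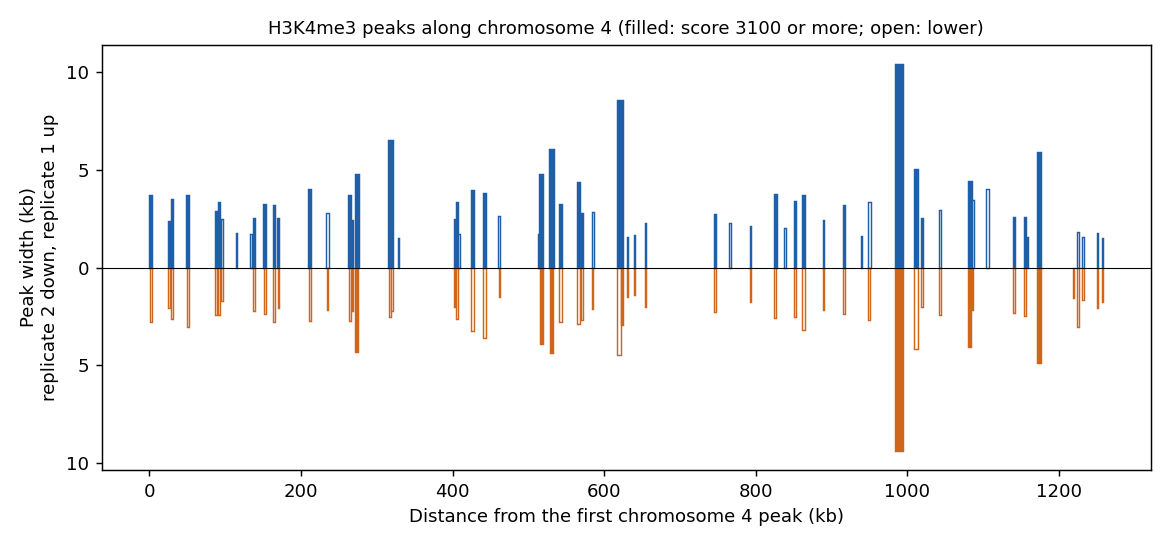
Peaks of H3K4me3 along chromosome 4, by distance from the first peak in kb, with peak width in kb upward for replicate 1 (blue) and downward for replicate 2 (orange). Filled bars have a deposited score of 3100 or more; 38 of 63 bars are filled in replicate 1 and 7 of 56 in replicate 2, and the peak of 10415 and 9378 bases is the widest in both.

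The widest domain of chromosome 4 was the same in both libraries, at chr4:1045031-1055445 (10415 bases) in replicate 1 and chr4:1045760-1055137 (9378 bases) in replicate 2. In replicate 1 it was followed by chr4:677914-686469 (8556 bases), chr4:375915-382416 (6502 bases), chr4:588838-594914 (6077 bases) and chr4:1232099-1238034 (5936 bases). In replicate 2 the next were chr4:1232690-1237562 (4873 bases), chr4:678671-683143 (4473 bases), chr4:589909-594255 (4347 bases) and chr4:332972-337293 (4322 bases). The domains at chr4:677914-686469 and chr4:375915-382416 were each a single peak in replicate 1 and a pair of adjoining peaks in replicate 2. The widest peaks listed for each library had a score of 3100 or more, except chr4:678671-683143 at 3064. The 2 replicate 2 peaks of the domain at chr4:375915-382416 scored lower, 2242 at chr4:377407-379952 and 712 at chr4:380009-382240. The deposited score is the authors' own value per peak, and 3100 acted as a ceiling that many peaks shared. Since no annotation of dm3 was at hand, peaks were not assigned to genes.

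Chromosome 4 peaks were somewhat wider than those of the comparison arms in replicate 1 and narrower in replicate 2. Their median width was 2829 bases (quartiles 2292 and 3727) in replicate 1 and 2459 bases (quartiles 2119 and 2905) in replicate 2. The comparison arms barely differed between libraries, with medians of 2694 bases (quartiles 2110 and 3614) and 2690 bases (quartiles 2110 and 3681). The difference in median thus changed sign between libraries, 135 bases above the arms in replicate 1 and -232 in replicate 2, and no single direction can be given for the width of chromosome 4 peaks. Peaks in the heterochromatin arms were narrower than those of the comparison arms in both libraries, with medians of 2417 and 2273 bases. The narrowest peaks stood on unplaced sequence, with medians of 1864 and 1754 bases on chrU and 1584 and 1604 bases on chrUextra, where the widest peak of either library had 2527 bases.

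**Figure D2:**
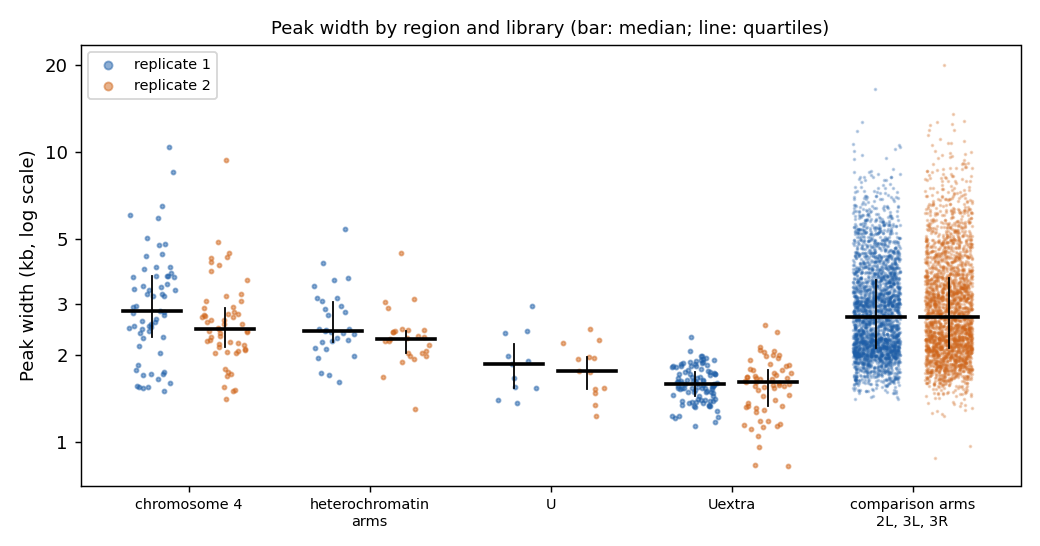
Width of every peak in kb (log scale) by region and library, replicate 1 in blue and replicate 2 in orange, with the median as a bar and the quartiles as a line. The comparison arms have medians of 2694 and 2690 bases, while chromosome 4 goes from 2829 to 2459 bases and chrUextra stays near 1600 bases (1584 and 1604).

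Matched peaks showed that nearly the whole of chromosome 4 had narrower peaks in replicate 2. A pair was matched when a peak of each library overlapped the other and nothing else, by at least 1 base. On chromosome 4, 47 of 51 pairs (92.2%, interval 81.1% to 97.8%) were narrower in replicate 2, with a median ratio of replicate 2 to replicate 1 width of 0.826 (quartiles 0.749 and 0.896) and a median difference of -509 bases. On the comparison arms 1172 of 2309 pairs (50.8%, interval 48.7% to 52.8%) were narrower, with a median ratio of 0.997 (quartiles 0.911 and 1.09). In 41 of 51 chromosome 4 pairs (80.4%, interval 66.9% to 90.2%) the replicate 2 peak lay wholly inside the replicate 1 peak, against 27.9% of pairs on the comparison arms (interval 26.1% to 29.8%). Among pairs of similar replicate 1 width, the contrast was seen in the wider classes, and the narrowest class held too few pairs to tell. Of pairs 2000 to under 3000 bases wide, 19 of 19 were narrower on chromosome 4 and 570 of 1071 (53.2%) on the comparison arms. Of pairs 3000 bases or wider, 26 of 26 and 467 of 945 (49.4%) were narrower. In the class just below 2000 bases the contrast was not seen, with 2 of 5 pairs (40%) and 135 of 288 (46.9%). All 4 pairs of chromosome 4 that were not narrower were under 2000 bases wide in replicate 1. The 19 of 19 and 26 of 26 followed from that and add no separate support.

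The 4 exceptions on chromosome 4 were its 4 most distal pairs, a grouping made after the values were seen. The other 47 of 47 pairs were narrower in replicate 2. The first of the 4 was 1839 bases wide in replicate 1 (chr4:1285848-1287686) and 3056 bases in replicate 2 (chr4:1284827-1287882). The next, chr4:1292592-1294152 in replicate 1, went from 1561 to 1683 bases. The third, chr4:1311723-1313470, went from 1748 to 2070 bases. The last peak of the chromosome, chr4:1317726-1319220, went from 1495 to 1746 bases. Within replicate 1 these peaks had scores of 343, 167, 198 and 76.7, and within replicate 2 scores of 1777, 846, 934 and 383. The 1 peak of chromosome 4 listed in replicate 2 alone, chr4:1280326-1281867 with a width of 1542 bases and a score of 174, lay beside them.

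**Figure D3:**
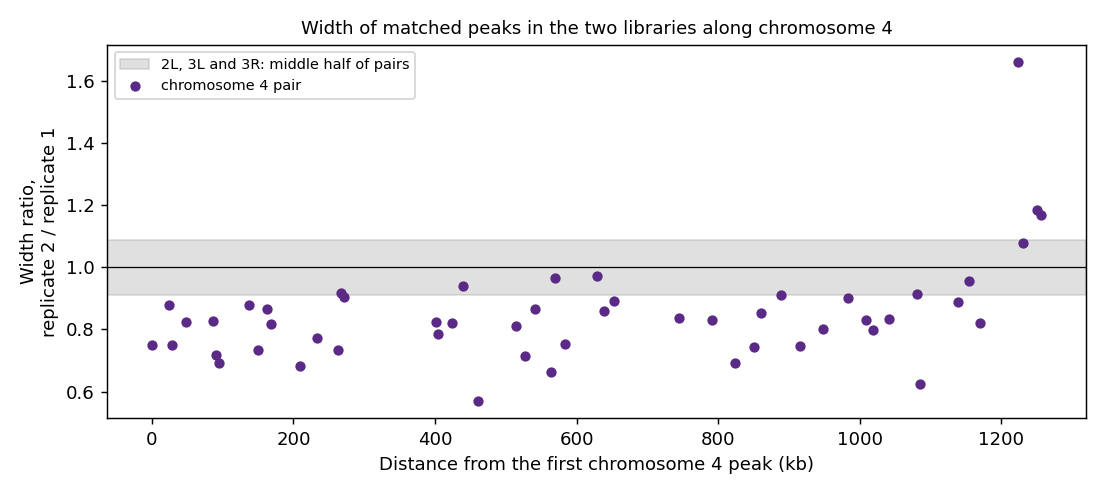
Ratio of replicate 2 to replicate 1 peak width for the 51 matched pairs of chromosome 4, by distance from the first peak in kb; the grey band spans the quartiles of the comparison arms (0.911 to 1.09) and the line marks equal width. The 47 pairs up to the distal end lie below 1 and the 4 most distal pairs above it.

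Matched peaks of the heterochromatin arms leaned the same way, with exceptions by sequence. Of 25 pairs, 21 were narrower in replicate 2 (84%, interval 63.9% to 95.5%), with a median ratio of 0.853. They comprised 3 of 3 on chr2LHet, 11 of 13 on chr3LHet, 6 of 6 on chr3RHet and 1 of 3 on chrXHet. The 2 exceptions on chr3LHet were neighbours, chr3LHet:701274-703486 (2213 bases in replicate 1 and 2426 in replicate 2) and chr3LHet:708300-710573 (2274 and 2425 bases). The lean was not seen on chrUextra, with 18 of 41 pairs narrower (43.9%, interval 28.5% to 60.2%). On chrU 7 of 11 were narrower (63.6%, interval 30.8% to 89.1%), too few pairs to tell. Of unplaced pairs 2000 to under 3000 bases wide in replicate 1, 4 of 5 were narrower.

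The ends of the comparison arms that border pericentric heterochromatin were examined in the same way, in windows of 1 Mb chosen after the values of the members were seen. At the high-coordinate, centromere-proximal end of chr2L 16 of 17 pairs were narrower in replicate 2, and at that of chr3L 5 of 5. At the centromere-proximal end of chr3R, its low-coordinate end, 16 of 41 were narrower. The far ends had 20 of 40 on chr2L, 22 of 44 on chr3L and 13 of 26 on chr3R. Narrower peaks in replicate 2 were therefore also found next to pericentric heterochromatin on 2 arms and were not particular to chromosome 4.

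Few chromosome 4 peaks reached the score ceiling in replicate 2, while most did in replicate 1. In replicate 1, 38 of 63 chromosome 4 peaks had a score of 3100 or more (60.3%, interval 47.2% to 72.4%), against 51.6% on the comparison arms (interval 49.7% to 53.5%). In replicate 2, 7 of 56 reached it (12.5%, interval 5.18% to 24.1%), against 50.2% on the comparison arms (interval 48.2% to 52.1%). The median chromosome 4 peak outscored 48.4% of comparison-arm peaks in replicate 1, as did the median comparison-arm peak at the tied ceiling, and 38.1% in replicate 2, where the median comparison-arm peak outscored 49.8%. The contrast was also present at like width. Among peaks of 2000 to under 3000 bases, 12 of 21 chromosome 4 peaks were at the ceiling in replicate 1 (57.1%; comparison arms 40%) and 1 of 35 in replicate 2 (2.86%; comparison arms 42.9%). Heterochromatin arms went alongside, with 17 of 30 peaks at the ceiling in replicate 1 (56.7%, interval 37.4% to 74.5%) and 5 of 26 in replicate 2 (19.2%, interval 6.55% to 39.4%). Among matched pairs, 30 of 51 on chromosome 4 (58.8%) and 15 of 25 on the heterochromatin arms (60%) were at the ceiling in replicate 1 only, against 12.3% on the comparison arms. The centromere-proximal 1 Mb of chr2L had 12 of 17 such pairs and that of chr3L 4 of 5, while that of chr3R had 5 of 41. Scores depend on the reads of a library and its background, neither of which was at hand, and their part in the difference was not tested.

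**Figure D4:**
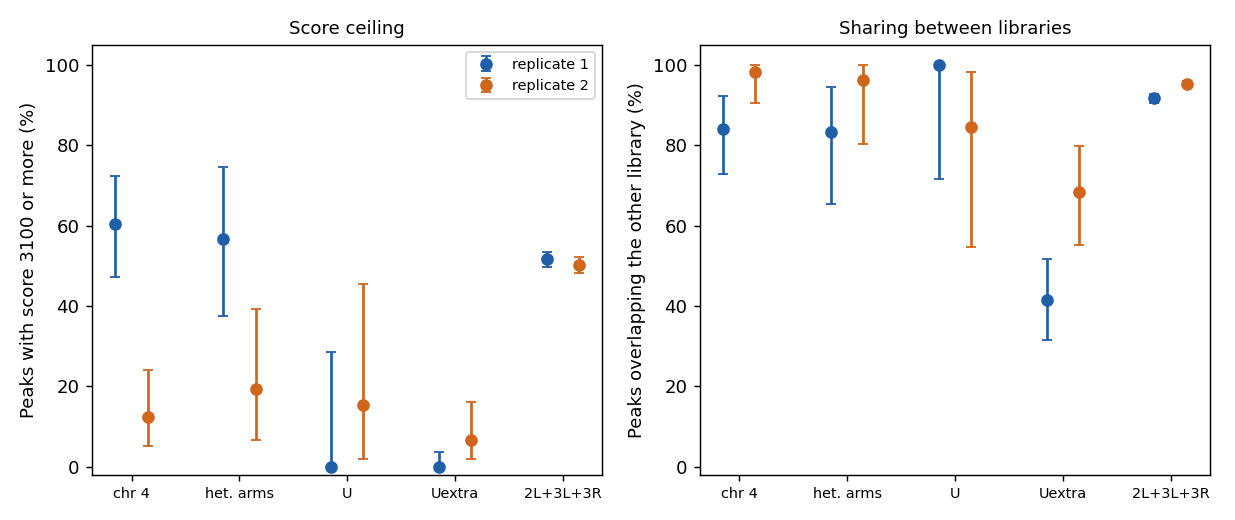
Left, percent of peaks with a deposited score of 3100 or more; right, percent of peaks that overlap a peak of the other library, by region, with exact 95% binomial intervals as error bars (replicate 1 blue, replicate 2 orange). On chromosome 4 the left share is 60.3% and 12.5% while the comparison arms stay at 51.6% and 50.2%, and chrUextra has the lowest shares overlapping, 41.4% and 68.3%.

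Almost every chromosome 4 peak of replicate 2 was also listed in replicate 1. The overlapping share was 55 of 56 (98.2%, interval 90.5% to 100%) counted from replicate 2 and 53 of 63 (84.1%, interval 72.7% to 92.1%) counted from replicate 1. The comparison arms had 95.3% (interval 94.4% to 96%) and 91.6% (interval 90.5% to 92.6%), within the chromosome 4 intervals. The 10 peaks listed in replicate 1 alone had scores of 64.1 to 272 and a median width of 1711 bases, against a median of 3193 bases for the overlapping peaks. Of chromosome 4 peaks scoring 500 or more, 47 of 47 and 46 of 46 overlapped (interval from 92.5% and 92.3% upward), as did 99.4% and 99.5% of such peaks on the comparison arms. Peaks scoring under 500 overlapped in 6 of 16 cases in replicate 1 (interval 15.2% to 64.6%) and 9 of 10 in replicate 2 (interval 55.5% to 99.7%). The comparison arms had 45.5% and 78.1% for such peaks, within both intervals.

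The heterochromatin arms held few peaks, mostly found in both libraries and, outside chrXHet and chrYHet, with a long median spacing. Their span had 0.984 and 0.999 peaks per 100 kb, and neighbours lay a median of 43.5 and 49.1 kb apart. Span ran from the first to the last peak of each sequence and left out ends without peaks. That of chr3RHet was 679 kb in replicate 1 and 232 kb in replicate 2, so these densities depend on the outermost peaks. Of the peaks of the heterochromatin arms, 25 of 30 (83.3%, interval 65.3% to 94.4%) and 25 of 26 (96.2%, interval 80.4% to 99.9%) overlapped. chr3LHet held 15 and 13 peaks with a median spacing of 74.7 and 74.5 kb, and chr3RHet 9 and 6 peaks with 37.9 and 38.8 kb. The peaks of chrXHet lay a median of 11.9 kb apart in both libraries, close to the medians of the comparison arms. The widest of the heterochromatin arms in replicate 1 was chr3LHet:206181-211614 at 5434 bases, matched by a peak of 2891 bases in replicate 2, and chrXHet:74041-78193 (4153 bases) and chr3LHet:457415-461100 (3686 bases) followed in replicate 1. The highest score of the heterochromatin arms in replicate 1 was 3206, at chr3LHet:1394559-1397427, where the replicate 2 peak of 2231 bases scored 667.

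chr2LHet and chrXHet listed the same peaks in both libraries, and chrYHet did not. chr2LHet held 3 peaks in both libraries, at chr2LHet:30809-33608, chr2LHet:34177-36528 and chr2LHet:167263-169706 in replicate 1, with widths of 2800, 2352 and 2444 bases. The same peaks had 2389, 2279 and 2058 bases in replicate 2, and their scores were at 3100 in replicate 1 and 1864, 1154 and 1461 in replicate 2. chrXHet also held 3 peaks in both libraries, at chrXHet:59853-62979, chrXHet:74041-78193 and chrXHet:84154-86245 in replicate 1. Their widths were 3127, 4153 and 2092 bases in replicate 1 and 3110, 4489 and 2408 bases in replicate 2, and 2 of the 3 were at the score ceiling in each library. chrYHet held 1 peak, in replicate 2 alone, at chrYHet:305193-306490 with a width of 1298 bases and a score of 321.

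Most chrU peaks were listed in both libraries, and chrUextra had lower overlapping shares than the comparison arms. On chrU, 11 of 11 peaks of replicate 1 (interval 71.5% to 100%) and 11 of 13 of replicate 2 (84.6%, interval 54.6% to 98.1%) overlapped. Neighbours lay a median of 346 and 375 kb apart along chrU. It gathers scaffolds without a place, so this is no distance on a chromosome. The widest, chrU:7542431-7545370, had 2940 bases in replicate 1 and 2455 in replicate 2, with scores of 2728 and 3100. On chrUextra 41 of 99 peaks of replicate 1 overlapped (41.4%, interval 31.6% to 51.8%) and 41 of 60 of replicate 2 (68.3%, interval 55% to 79.7%). In both libraries the interval lay wholly below that of the comparison arms, although intervals cover counting error only and are no test across samples. The same 41 matched pairs were counted from both lists, so the 2 shares are not separate support.

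Most chrUextra peaks scored under 500, and most of those above it were shared. In replicate 1, 89 of 99 (89.9%) scored under 500, against 14.5% of comparison-arm peaks; in replicate 2, 32 of 60 (53.3%) did, against 19.8%. Of the chrUextra peaks scoring 500 or more, 10 of 10 (interval from 69.2% upward) and 25 of 28 (89.3%, interval 71.8% to 97.7%) overlapped the other library, against 99.4% and 99.5% on the comparison arms. Of those under 500, 31 of 89 overlapped in replicate 1 (34.8%, interval 25% to 45.7%) and 16 of 32 in replicate 2 (50%, interval 31.9% to 68.1%). The comparison arms had 45.5%, inside the replicate 1 interval, and 78.1%, above that of replicate 2. Under 500 the chrUextra share was thus the lower in both libraries. The part of its many low scores in the lower sharing was not tested. No chrUextra peak reached the ceiling in replicate 1 (0 of 99, interval up to 3.66%) and 4 of 60 did in replicate 2 (6.67%, interval 1.85% to 16.2%). The strongest of replicate 1, chrUextra:6020995-6022943 with a score of 2591, was among those 4.

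Transcript counts gave a separate view of chromosome 4 genes. They came from 6 libraries of 3' RNA ends from heads of control flies of the strain labelled YW carrying the ubiquitous driver actin5C-gal4 alone, 3 kept at 18 °C and 3 at 29 °C, so strain and temperature differ from the H3K4me3 flies. Photoreceptor and neuron genes were present in these libraries, with ninaE, the main rhodopsin, at 11679 to 22730 CPM (counts scaled to the library total) and nSyb, a synaptic vesicle protein, at 293 to 406 CPM. Cp36 of the eggshell and dj of the testis had no read in any of the 6, which allows up to 0.42 to 0.836 CPM, and Mst87F of the testis stood at 0.602 CPM or less. The yolk protein gene Yp1, which fat body also expresses, stood at 11863 to 34938 CPM.

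Of 103 genes placed on chromosome 4 by the RefSeq table, 81 had at least 1 CPM in all 6 control libraries (78.6%, interval 69.5% to 86.1%). On chr2L, chr3L and chr3R together 5322 of 10561 did (50.4%, interval 49.4% to 51.4%), and the single arms had 47.6%, 49% and 53.7%. Chromosome 4 had 0.778 and 0.691 H3K4me3 peaks per detected gene in replicates 1 and 2, and the comparison arms 0.525 and 0.499. These ratios set counts side by side and match no peak with a gene.

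The chromosome 4 genes with the highest mean CPM included genes of broad use. Rfabg, which encodes the apolipophorin precursor of haemolymph lipid transport, stood at 2771 to 3270 CPM (median 3021). RpS3A, a protein of the small ribosomal subunit, stood at 1911 to 3037 CPM (median 2405), and its 3 lowest values were the 18 °C libraries. ATPsynbeta, the catalytic beta subunit of mitochondrial ATP synthase, stood at 1353 to 2608 CPM (median 1760), and there the 3 lowest were the 29 °C libraries; temperature was not tested here. The others were CG32850 (median 258 CPM), the respiratory complex I gene ND-49 (217 CPM), the calsyntenin gene Cals (175 CPM), the kinase gene CaMKI (168 CPM), CG31997 (156 CPM), the plasma membrane calcium pump gene PMCA (152 CPM) and gw of microRNA silencing (136 CPM). The order follows the mean CPM of 3' end counts as deposited and was not checked as a ranking of genes by expression.

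Developmental regulators for which the chromosome is known were also detected in adult heads. The Pax6 genes ey and toy, which act in eye development, stood at 8.63 to 13.1 CPM (median 12) and 39 to 44.6 CPM (median 43.4). sv, a Pax2 gene, stood at 5.96 to 10.4 CPM, ci, the transcription factor of Hedgehog signalling, at 17 to 24.2 CPM, and pan, that of Wnt signalling, at 29.3 to 38.6 CPM. The homeobox gene zfh2 stood at 16 to 23.3 CPM and the receptor gene Eph at 47.5 to 51.7 CPM. Gat, a GABA transporter, stood at 44.6 to 116 CPM, Pur-alpha, a nucleic acid binding protein, at 65.5 to 119 CPM, and bt, the giant muscle protein projectin, at 52.8 to 86.5 CPM. All 10 had at least 5 CPM in all 6 control libraries, as did 75 of the 103 genes.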

How the data were processed

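Peaks were deposited by the authors as a list per H3K4me3 library, with 1 score per peak from a caller whose peak names begin with MACS. Bowtie2 and the build dm3 are named per the submitters' processing notes; the sources used here give no version or threshold of the caller and do not say whether an input library was used. Starts were read as 0-based and are printed 1-based. Peaks of chr2R and chr2RHet were not used here. Overlap needed 1 base. Spacing is the distance between midpoints of neighbouring peaks of a sequence. Scores were ranked only within their list, as the percent of comparison-arm peaks with a lower score. RNA values were deposited by the authors as counts per gene, with STAR and TopHat2 named per the submitters' processing notes; how reads were assigned to genes, and whether by strand, was not given in the sources used here, so overlapping and antisense genes may share reads. CPM used edgeR 4.0.16 TMM-scaled library sizes over 12 libraries, of which 6 were controls and 6 came from flies with the same driver and a BEAF-32 RNA interference construct at 18 °C or 29 °C; the control libraries held 3588440 to 7146191 counts. Gene symbols matched RefSeq of Release 6 directly for 12673 genes, through a synonym for 3900, and 146 were not matched; its coordinates were not used. Python 3.11.15 and scipy 1.17.1 gave the summaries and intervals, and the overlap and spacing steps were tested on simulated peaks. Members, lists and rules were chosen with earlier results of these data known. Named peaks are the 5 widest and 5 highest-scoring of chromosome 4 and the 3 widest and 3 highest-scoring of the other members per library, the 3 longest gaps, and all peaks of sequences with at most 5, with the chrUextra and distal peaks added after their values were seen. Named genes are the 10 of chromosome 4 with the highest mean CPM and a list of 12. The alternatives were only the peaks at or above the median score of each list, joining peaks under 500 bases apart, a reciprocal overlap of 50%, gaps between edges, scores ranked among the comparison arms and the X chromosome or over shared peaks alone, other detection limits and each library alone; those for matched pairs and for the ceiling share were chosen after seeing the data.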

Additional observations from a re-analysis of the deposited data

How the results depend on the processing

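Of 53 alternatives other than leaving out a library, 29 stayed close to the main value, 21 moved away from it and 3 turned the sign. Close meant within the standard deviation of the 2 libraries, a limit that widens where the libraries disagree. Peak counts had a fixed fold limit instead. Shares of matched pairs and of detected genes were close when inside the interval of the main share. Other values below are means of both libraries unless a library is named. Each library alone ran from -232 to 135 bases for the median width of chromosome 4 minus the comparison arms. It ran from -7.49 to 2.95 percentage points for its overlapping share and from -37.7 to 8.74 for its ceiling share. For the heterochromatin arms the last pair of ranges was -8.29 to 0.894 and -30.9 to 5.09 percentage points. With only the peaks at or above the median score, chromosome 4 kept 24 peaks (38 in replicate 1, 10 in replicate 2). The heterochromatin arms kept 11.5, unplaced sequence 3.5 and the comparison arms 1419.5 (1463 and 1376). The width difference from the comparison arms was then 473 bases for chromosome 4, against -48.2 over all peaks. It was positive in both libraries (134.5 and 811.5 bases), with only 10 peaks left in replicate 2. For the heterochromatin arms it was -774 bases. The median spacing of chromosome 4 was 192% above the arms (22.3% in replicate 1, 362% in replicate 2) and that of the heterochromatin arms 68.7%, with opposite signs in the libraries (193% and -56%). The overlapping share differed by -19.8 percentage points on chromosome 4, again with opposite signs (-56.8 and 17.2), and by -47.9 on the heterochromatin arms. Unplaced sequence then held no peak of replicate 1 and gave no other value. Counting gaps between edges put the median spacing 72.6% (chromosome 4), 435% (heterochromatin arms) and 2830% (unplaced sequence) above the arms. The value of unplaced sequence runs across scaffolds without a place and is no distance on a chromosome. Joining peaks under 500 bases apart gave 245% for the heterochromatin arms and a width difference of -1184 bases for unplaced sequence. A reciprocal overlap of 50% turned the overlapping share of the heterochromatin arms to 1.25 points above the arms (-2.98 in replicate 1, 5.48 in replicate 2). Among peaks from 2000 to under 3000 bases wide, the ceiling share of the heterochromatin arms was 5.64 points above the arms (30.6 and -19.3 by replicate) and that of unplaced sequence -16.4 points from them (-40 and 7.13), both means of opposite signs. Of such pairs, 80% on unplaced sequence (4 of 5) and 100% on chromosome 4 were narrower in replicate 2. Chromosome 4 also had 100% without scores under 500 and 100% without its 4 most distal pairs. Each of these chromosome 4 settings, the width class included, leaves out all 4 distal pairs, which were the only exceptions. The 100% was therefore fixed in advance and adds no support. The cause was not tested. No paired analysis was possible because the 2 H3K4me3 libraries form 1 group and no result comes from a test.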
